A study of Homo sapiens with 24 samples.

Results

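The protein-coding genes named as eukaryotic translation initiation factors (symbols beginning EIF and a digit) or elongation factors (EEF and a digit) were followed after knockdown of IGF2BP1, an RNA-binding protein that stabilises a set of mRNAs, in 4 human cancer cell lines. They were taken by symbol from the deposited gene tables, leaving out genes on the Y chromosome and the kinases named EIF2AK, which gave 63 genes of the 19799 protein-coding genes listed. By the factor or complex they belong to, they fall into 6 genes of the eIF1 family with eIF5 and eIF5B, 5 of eIF2 and eIF2-like factors, 5 of eIF2B, 14 of eIF3, 12 of the cap-binding complex eIF4F and its helpers, 4 regulators of eIF4E, 3 of eIF5A, 1 of eIF6, 7 of eEF1, and 6 of eEF2 and the enzymes that modify eEF1A and eEF2. The rule itself uses no measured value, but the genes were chosen with earlier results of these data known.

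The lines come from a lung adenocarcinoma (A549), an ovarian carcinoma (ES2), an amelanotic melanoma (MV3) and a pancreatic ductal adenocarcinoma (PANC1). In each, 3 libraries came from cells transfected with a control siRNA (siC) and 3 from cells transfected with a pool of siRNAs directed at IGF2BP1 (siI1), so that every library is from transfected cells and there is no untreated group. Total RNA, freed of ribosomal RNA, was taken 72 h after transfection in A549, ES2 and MV3 and 96 h after it in PANC1, so that line and harvest time cannot be told apart for PANC1. The 3 libraries of a group are biological replicates of 1 cell line per the study's methods, and p-values measure the spread between them. In such bulk RNA, a lower level in every cell and a smaller share of cells with the mRNA cannot be told apart.

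Translation of a capped mRNA begins when eIF2 brings the initiator tRNA to the small ribosomal subunit together with eIF1, eIF1A, eIF3 and eIF5, while eIF4F (the cap-binding eIF4E, the scaffold eIF4G and the helicase eIF4A) binds the 5′ end of the mRNA. eIF5 triggers GTP hydrolysis on eIF2, eIF2B reloads eIF2 with GTP, and eIF5B joins the subunits. eEF1A then delivers aminoacyl-tRNAs, eEF1B recharges eEF1A, and eEF2 moves the ribosome along the mRNA.

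The mRNAs of many ribosomal proteins and elongation factors begin with a cytosine followed by a run of pyrimidines, the 5′ terminal oligopyrimidine motif, through which growth signals control their translation. Because several translation factors belong to this class, the bases around the annotated starts were examined. A tract was counted where a C followed by at least 4 bases that are C or T began within 5 bases of a RefSeq transcription start (GRCh38.p14), on the transcribed strand only. A short tract can thus lie wholly before the annotated start. Of the 63 genes, 50 were matched in the start table, and 23 of them, 46%, had a tract at a listed start. The same tract stood at a start of 28.3% of 14639 protein-coding genes and of 82.8% of 64 cytosolic ribosomal protein genes. Windows of 30 bases, from 10 bases before the start, are shown for some of the genes whose mRNA changed in several lines, with the tract in capitals. EEF2 is called higher in 3 lines. EEF1B2, EIF2S3 and EIF3K are called lower in 3. EIF5 and EIF2S1 are called lower in all 4. EIF2B5 and EIF4G2, also called lower in 3, are not shown: EIF2B5 had no tract, and EIF4G2 had a tract at a listed start but none at another. EIF3E, called higher in 3, was not matched in the start table. The windows are thus no measure of how often changed genes have a tract. EEF1A1, called in none, is shown as a well-known member of the class.
EEF2 (chr19:3985444-3985473, minus strand): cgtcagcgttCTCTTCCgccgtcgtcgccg
EEF1A1 (chr6:73521013-73521042, minus strand): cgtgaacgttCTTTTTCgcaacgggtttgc
EEF1B2 (chr2:206159885-206159914, plus strand, one of the listed starts): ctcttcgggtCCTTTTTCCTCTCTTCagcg
EIF2S3 (chrX:24054946-24054975, plus strand): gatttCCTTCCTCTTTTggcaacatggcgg
EIF3K (chr19:38619178-38619207, plus strand): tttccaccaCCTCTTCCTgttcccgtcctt
EIF5 (chr14:103334878-103334907, plus strand, one of the listed starts): ggcacCCCTCggccgtgtgtcgcttcccgg
EIF2S1 (chr14:67360318-67360347, plus strand, no tract): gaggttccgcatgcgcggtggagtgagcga
The tract thus stood at or near starts of genes that were called higher and of genes that were called lower. That of EIF5 ended before the annotated start, and the other start listed for EIF5 had none. Among the members tested, 22 with a tract and 23 to 25 without in each line, the median log2 fold change with a tract and without was 0.02 and -0.07 in A549, -0.06 and -0.22 in ES2, -0.17 and -0.22 in MV3, and -0.02 and -0.07 in PANC1, as a description of these genes. For tested protein-coding genes with a listed start it was -0.02 and -0.04 in A549 and in ES2, -0.02 and -0.02 in MV3, and -0.03 and -0.04 in PANC1. A match of letters is not a mapped start, and no test was made on it.

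Values are FPKM, the fragments counted per kilobase of a gene, relative to the size of the library. Libraries held from 3105215 to 20082702 reads assigned to genes, fewest in A549 and most in MV3, so that a low FPKM rests on fewer reads in A549. IGF2BP1 itself was lower in each siI1 library than in any siC library of its line, with log2 fold changes from -1.83 in PANC1 to -1.32 in A549 (limma adjusted p from 5.93e-05 to 0.000319). RN7SL2, a 7SL RNA, took 17.7% to 20.9% of the reads in siI1 libraries of PANC1 against 8.74% to 12.8% in its siC libraries, and protein-coding genes took 71.0% to 75.03% against 80.8% to 85.2%. The part of this shift in the results for PANC1 was not tested. Of the markers fixed for each line's tissue, the keratins KRT8, KRT18 and KRT19 stood at 117 to 512 FPKM in siC of A549 and 201 to 717 FPKM in siC of PANC1, while KRT7 stood at 399 FPKM in A549, 103 FPKM in ES2 and 2.88 FPKM in PANC1. ES2 also held KRT18 at 44.4 FPKM in siC, with KRT19 at 0. KRT8 was at 242 FPKM in siI1 of A549 against 512 FPKM in siC, and the part of this in the results for A549 was not tested. The lung markers NKX2-1, SFTPB and SFTPC were listed at 0 in A549, EPCAM at 0 in siC of ES2 (0.176 FPKM in siI1), and SOX10, TYR and S100B at 0 in MV3.

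All fold changes below are siI1 minus siC on the log2(FPKM + 0.5) scale, and a gene is called where limma's two-sided test across all genes of the line gave a Benjamini-Hochberg adjusted p under 0.05. A gene entered the test of a line where its 6 libraries averaged 0.5 FPKM or more. Of the 63 translation factor genes, 57 were tested in all 4 lines and 60 in at least 1. EEF1G and EEF1E1.BLOC1S5, the readthrough transcript of EEF1E1, were listed at 0 in every library, and EIF4E1B had at most 1 read in a library. By GENCODE release 44, 99.7% of the exon bases of EEF1G and 100% of those of EEF1E1.BLOC1S5 are shared on the same strand with another gene of the tables, where a read cannot be assigned to one gene.

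The counts of called members varied by line. In MV3, 31 of the 58 tested genes were called lower and 3 higher, 53.4% lower against 26.8% of all tested protein-coding genes of that line and 5.17% higher against 19.6%. In ES2, 14 of 58 were lower (24.1%, against 17.9% of protein-coding genes) and 4 higher (6.90% against 13.4%). In A549, 6 of 60 were lower (10.0%, against 11.4%) and 8 higher (13.3% against 7.94%), and in PANC1, 9 of 59 were lower and 9 higher (15.3% each, against 17.3% and 13.6%). The shares were nearer to those of all protein-coding genes in A549 and PANC1, and lay apart from them most in MV3. Leaving out 1 library at a time gave 26 to 31 lower in MV3, 7 to 11 in ES2 (7 without siI1 replicate 2 and 9 without siI1 replicate 3), 2 to 5 in A549 (2 without siC replicate 1) and 3 to 5 in PANC1 (3 without siC replicate 1 or siI1 replicate 1). It gave 2 to 3 higher in MV3, 1 to 3 in ES2 (1 without siI1 replicate 1 or 3), 1 to 5 in A549 (1 without siI1 replicate 2) and 2 to 14 in PANC1 (14 without siC replicate 2, 2 without siI1 replicate 2).

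**Figure D1:**
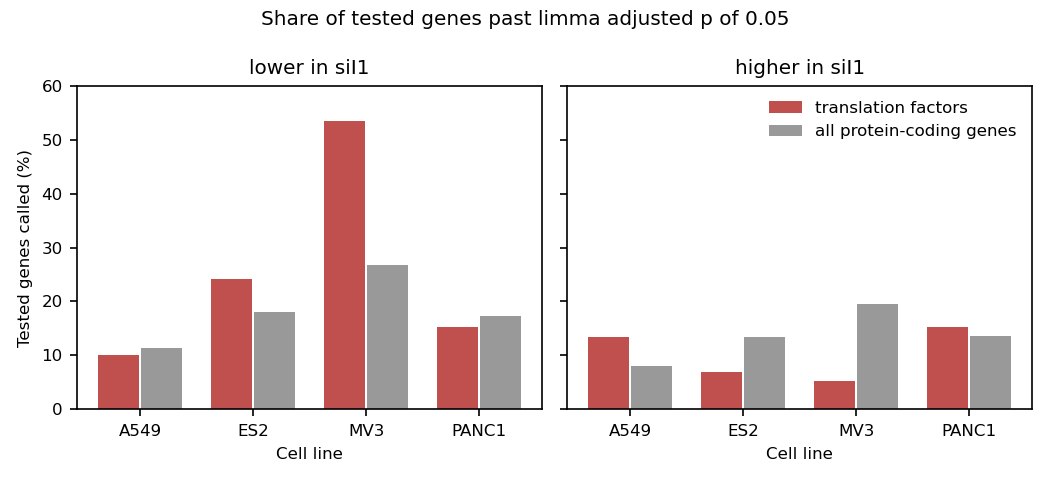
Bars give the percentage of tested genes called lower (left) or higher (right) in siI1 libraries in each cell line, for the translation factor genes (red) and for all protein-coding genes (grey). In MV3 the red bar for lower genes stands at 53.4% against 26.8% for protein-coding genes, and in A549 and PANC1 the paired bars are closer to each other.

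The changes were mostly small. Taking the lines in the order A549, ES2, MV3 and PANC1, the called members had a median absolute log2 fold change of 0.37, 0.38, 0.29 and 0.37, and 3, 6, 2 and 3 of them reached 0.5. The median over all tested members was -0.17 in MV3, where that of protein-coding genes was -0.02, and -0.12 against -0.03 in ES2. It was 0.01 in both A549 and PANC1, against -0.03 and -0.04.

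The scaling of the libraries moved many of these calls. With libraries set to the same sum over protein-coding genes, the split in MV3 became 18 lower and 12 higher and that in ES2 6 lower and 8 higher, while protein-coding genes in MV3 became 16.0% lower and 33.1% higher. With the same sum over all genes, PANC1 had 44 members lower and 0 higher by limma (0 at an unadjusted p under 0.05; voom, the limma test on the recovered reads, was run at the deposited scaling only), and its protein-coding median moved to -0.71. This scaling shifts the mean log2 factor applied to the PANC1 libraries, siI1 minus siC, by -0.76, so that values under it stand against that shift. The same sum over protein-coding genes and median-of-ratios scaling shift that factor by -0.04 and 0.03. By voom, 37 members were lower and 4 higher in MV3 (background 31.6% and 25.1%), 21 and 7 in ES2 (24.5% and 19%), 9 and 14 in A549 (18.9% and 13.3%), and 11 and 15 in PANC1 (23.2% and 17.6%). Median-of-ratios scaling gave 33 lower and 3 higher in MV3 and 5 lower and 12 higher in PANC1. Each scaling multiplies all values of a library by the same factor, so the member median less the protein-coding median can hardly change with it. That difference was -0.14 to -0.15 in MV3 over these scalings and between -0.07 and -0.08 in ES2. Its steadiness is thus no check on the scaling.

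**Figure D2:**
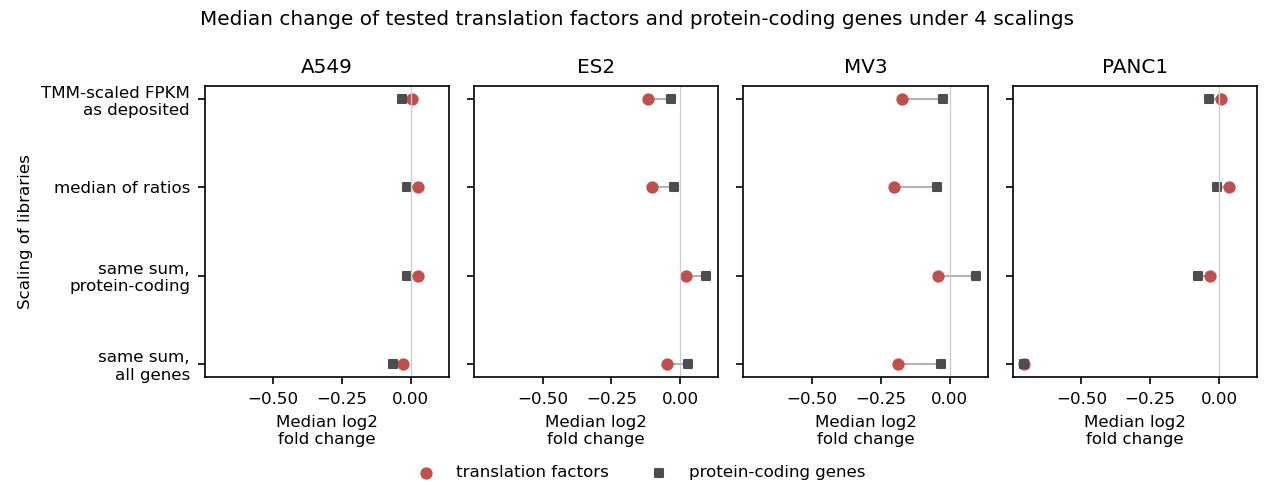
Each row is a way of scaling the libraries; circles give the median log2 fold change (siI1 minus siC) of the tested translation factor genes and squares that of tested protein-coding genes, in each cell line. The distance between the pair is near -0.15 in MV3 in each of the 4 rows, since a scaling moves both medians together. Both medians in PANC1 move to -0.71 with the same sum over all genes.

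Only 2 members, EIF2S1 and EIF5, were called lower in all 4 lines, 2 of 57 where 3.28% of protein-coding genes tested in 4 lines were. With the same sum over protein-coding genes none was (3 at an unadjusted p under 0.05 and 3 by voom, both at the deposited scaling), and with median-of-ratios scaling or no filter on low values EIF5 alone was. None was called higher in all 4 by limma, with none at an unadjusted p under 0.05 and none by voom, against 0.705% of protein-coding genes. Called lower in at least 3 lines were 7 members (EEF1B2, EIF2B5, EIF2S1, EIF2S3, EIF3K, EIF4G2 and EIF5; background 9.34%) and called higher in at least 3 were 2 (EEF2 and EIF3E; background 4%). Of the 60 members tested in at least 1 line, 32 were called lower in at least 1 and never higher (against 30.3% of protein-coding genes so tested), 13 higher and never lower (25.8%), and 4 each way (EIF4EBP1, EIF5A, EIF5AL1 and EIF6; 6.11%). The remaining 14 were called in no line, 11 of them tested. Whether a change differed between lines was judged by Cochran's Q, which sets the 4 log2 fold changes against their standard errors. It was past the threshold for 24 of 57 members, 42.1%, against 34.4% of protein-coding genes, and with 1 library left out for 5 to 17 (5 without A549 siC replicate 1 or 2 or siI1 replicate 1). With 1 library left out, 0 to 2 were lower in all 4 lines (0 without A549 siC replicate 1).

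**Figure D3:**
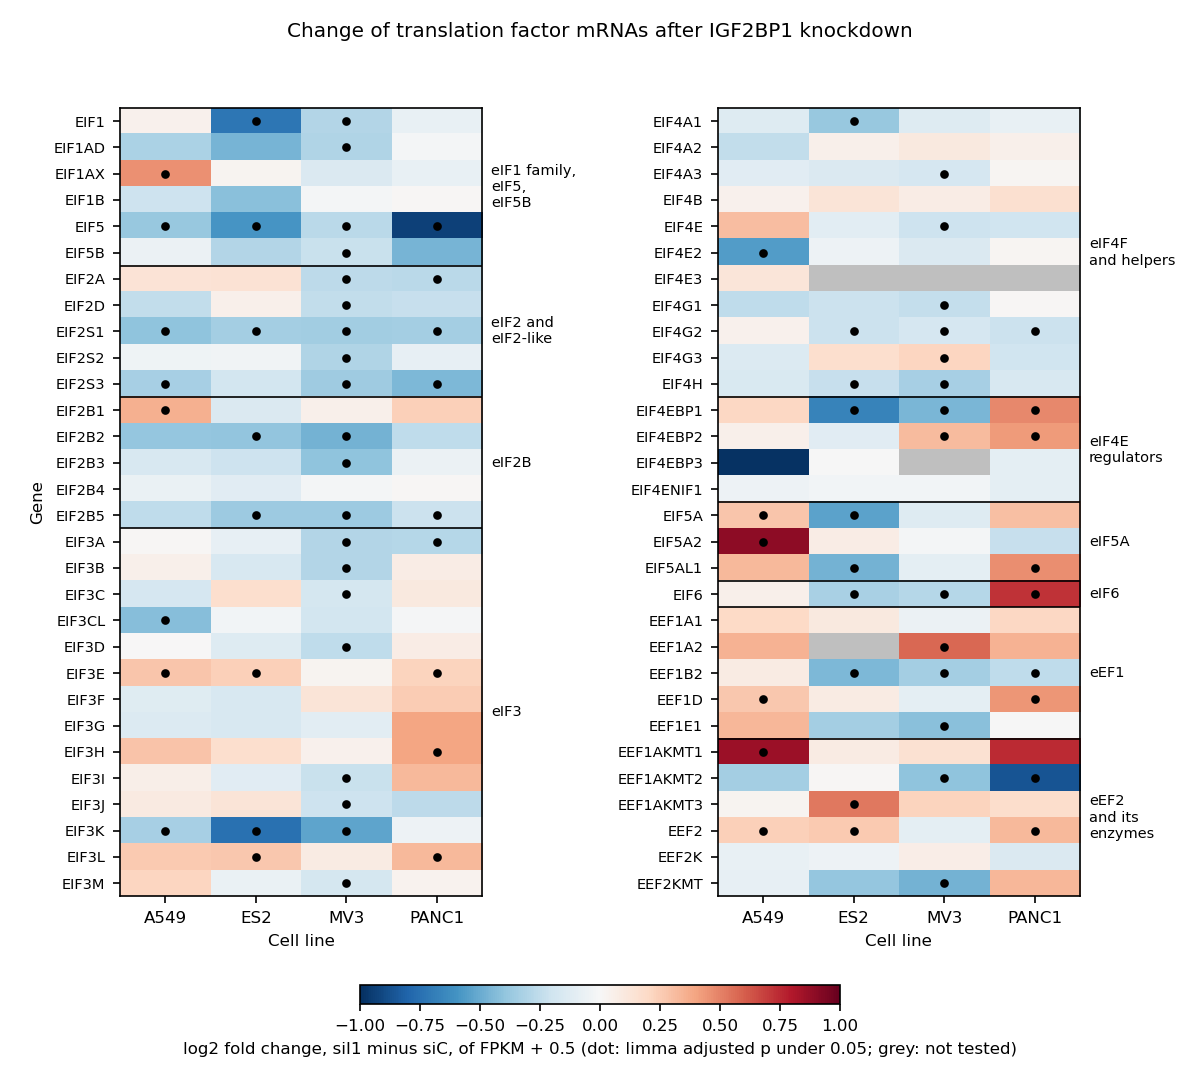
Each cell gives the log2 fold change (siI1 minus siC, FPKM + 0.5) of 1 gene in 1 cell line, blue for lower and red for higher, with genes grouped by factor complex; a dot marks a limma adjusted p under 0.05 and grey a gene not tested in that line. The column of MV3 holds 31 dots on blue cells, and EIF2S1 and EIF5 are the 2 rows with dots on blue in all 4 lines.

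EIF2S1, EIF2S3 and EIF2S2 encode the alpha, gamma and beta subunits of eIF2, the factor that carries the initiator tRNA. No gene of this group, which also holds the eIF2-like EIF2A and EIF2D, was called higher by limma in any line (0 at an unadjusted p under 0.05 and 0 by voom), and 2, 1, 5 and 3 of its 5 tested genes were called lower in A549, ES2, MV3 and PANC1, where 11.4%, 17.9%, 26.8% and 17.3% of protein-coding genes were. In MV3 all 5 were lower, with log2 fold changes from -0.36 to -0.25.

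EIF2S1 (ENSG00000134001; hg38 chromosome 14, 67360328 to 67386516), whose product is the subunit phosphorylated under stress, was called lower in each line. Its level in A549 was 36.1, 38 and 33.4 FPKM in siC and 25.3, 28.1 and 27.8 FPKM in siI1. The ES2 libraries stood at 35.4, 31.2 and 34.6 FPKM in siC and 25.4, 27.3 and 26.8 FPKM in siI1. The groups did not overlap in either. The MV3 libraries stood at 47.4, 46.3 and 46 FPKM in siC and 37.1, 36.7 and 35.7 FPKM in siI1, again without overlap. The PANC1 libraries stood at 26.7, 24.5 and 23.8 FPKM in siC and 19.1, 22.5 and 17.8 FPKM in siI1, where siI1 replicate 2 lay near the siC libraries but below them. The log2 fold change was -0.40 ± 0.07 in A549 and -0.34 ± 0.06 in ES2 (SE; adjusted p 0.0162 and 0.0106 by limma), and -0.35 ± 0.03 in MV3 against -0.34 ± 0.10 in PANC1 (SE; 0.000406 and 0.0492). Cochran's Q gave no difference between the lines past the threshold (adjusted p 0.925). The calls in ES2 and MV3 held without any 1 library. The call in A549 was lost without siC replicate 1 (adjusted p 0.0669), and that in PANC1 was lost in 5 of 6 cases, all but siI1 replicate 2, with adjusted p up to 0.151. The call in ES2 was also lost with the same sum over protein-coding genes (-0.20, adjusted p 0.104) and over all genes (-0.27, adjusted p 0.121), and that in PANC1 with median-of-ratios scaling (-0.30, adjusted p 0.0669) and without a filter on low values (adjusted p 0.0911).

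EIF2S3 (hg38 chromosome X, 24054946 to 24078810), the subunit that binds GTP and the tRNA, stood in A549 at 78.4, 76.3 and 80.5 FPKM in siC and 61.4, 63.6 and 61.4 FPKM in siI1. For MV3 the values were 25.9, 27.7 and 27.8 FPKM in siC and 19.8, 21.8 and 21.7 FPKM in siI1. For PANC1 the values were 38.6, 42.6 and 37.7 FPKM in siC and 26.8, 29.8 and 29.98 FPKM in siI1. In these 3 lines the groups were apart, and the log2 fold changes of -0.33 ± 0.04, -0.36 ± 0.05 and -0.45 ± 0.07 (SE) were called with limma adjusted p of 0.00579, 0.00273 and 0.00752. Each of these calls held without any 1 library. In ES2 the groups overlapped, and the value of -0.18 (95% interval -0.37 to 0.01) was not called. EIF2S2 was called lower in MV3 only, at -0.30, with values from -0.08 to -0.03 elsewhere.

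eIF2B, a complex of 5 different subunits, exchanges GDP for GTP on eIF2. In MV3, EIF2B2, EIF2B3 and EIF2B5 were called lower and EIF2B1 and EIF2B4 were not, in ES2 EIF2B2 and EIF2B5 were lower, and in PANC1 EIF2B5 was. EIF2B1 alone was called higher, in A549 (0.36). Of protein-coding genes, 26.8% in MV3, 17.9% in ES2 and 17.3% in PANC1 were called lower, and 7.94% in A549 higher. EIF2B5 (hg38 chromosome 3, 184135038 to 184146127), the catalytic subunit, stood in MV3 at 12.1, 12 and 12.2 FPKM in siC and 9.65, 9.2 and 9.06 FPKM in siI1. For ES2 the values were 11.3, 14.6 and 13.8 FPKM in siC and 10.4, 10.1 and 9.96 FPKM in siI1. PANC1 had 12.3, 12.2 and 11.7 FPKM in siC and 10.1, 10.8 and 9.94 FPKM in siI1. The groups did not overlap in any of the 3 lines, and the log2 fold changes were -0.36 ± 0.04, -0.36 ± 0.10 and -0.22 ± 0.06 (SE), with adjusted p of 0.00082, 0.0408 and 0.0426 by limma. Without 1 library the call in MV3 held in each case, that in ES2 held only without siC replicate 1 and that in PANC1 in none, with adjusted p up to 0.119 and 0.129. The call in ES2 was also lost with the same sum over protein-coding genes (-0.22, limma adjusted p 0.126) and over all genes (-0.29, 0.0604). That in PANC1 was lost with median-of-ratios scaling (-0.19, limma adjusted p 0.0687). EIF2B2 (hg38 chromosome 14, 75002921 to 75012366), a regulatory subunit, was lower in each siI1 library than in any siC library in all 4 lines. Its log2 fold change was called in MV3 (-0.47, limma adjusted p 0.000427) and in ES2 (-0.39, 0.0236), and was -0.38 and -0.25 in A549 and PANC1. The call in ES2 was lost without siC replicate 2 or 3 or siI1 replicate 2 or 3, with adjusted p up to 0.0684. It was also lost with the same sum over protein-coding genes (-0.26, limma adjusted p 0.0661) and over all genes (-0.32, 0.0546). On the opposite strand, 23.6% of the exon bases of EIF2B2 are shared with another gene.

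EIF5 (ENSG00000100664; hg38 chromosome 14, 103333544 to 103345025), the factor that stimulates GTP hydrolysis on eIF2, was called lower in every line, and its change differed between them (Cochran's Q, adjusted p 0.011). In PANC1 it stood at 28, 32.1 and 29.3 FPKM in siC and 15.7, 14.7 and 15.6 FPKM in siI1 and fell by 47.6% on the fitted scale. ES2 had 29.2, 30.4 and 30.4 FPKM in siC and 20.4, 19.6 and 19.5 FPKM in siI1. The siI1 values of PANC1 and ES2 lay far below every siC value. The A549 libraries stood at 35.6, 34.4 and 33.7 FPKM in siC and 25.3, 25.1 and 29.3 FPKM in siI1. MV3 had 44.3, 41.5 and 42.8 FPKM in siC and 36.3, 34.3 and 36.1 FPKM in siI1, the smallest difference of the 4. The log2 fold change was -0.93 ± 0.07 (SE) in PANC1, -0.59 ± 0.04 in ES2, -0.38 ± 0.07 in A549 and -0.27 ± 0.04 in MV3, with adjusted p of 0.000918, 0.000493, 0.022 and 0.00265 by limma. The calls in PANC1, ES2 and MV3 held without any 1 library. That in A549 was kept only without siI1 replicate 3, with adjusted p up to 0.0845 without any of the others. In MV3 the value under the same sum over protein-coding genes was -0.13 (adjusted p 0.0528).

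Of the factors that scan for the start codon with eIF5, EIF1 and EIF1AX were called in different lines and directions. EIF1 (hg38 chromosome 17, 41688885 to 41692668), which guards start codon choice, stood in ES2 at 21.6, 29.3 and 18.1 FPKM in siC and 15, 13.3 and 12.2 FPKM in siI1. Levels in MV3 were 25.6, 24 and 24.7 FPKM in siC and 17.7, 20.4 and 22.6 FPKM in siI1. Both were called lower, at -0.72 ± 0.18 and -0.29 ± 0.09 (SE; limma adjusted p 0.0303 and 0.0396), without overlap, and each call was lost in 4 of 6 cases when 1 library was left out (kept without siC replicate 2 or 3 in ES2, and without siI1 replicate 1 or 3 in MV3; adjusted p up to 0.101 and 0.11). The change of EIF1 in A549 was 0.04 and in PANC1 -0.07, with overlapping groups in both. EIF1AX (hg38 chromosome X, 20124525 to 20141838), the X-linked gene of eIF1A, was called higher in A549 alone, from 30.6, 31.1 and 25.7 FPKM in siC to 38.6, 39.1 and 42.3 FPKM in siI1, a log2 fold change of 0.46 ± 0.09 (SE, limma adjusted p 0.0201). In the other 3 lines it ranged from -0.14 to 0.03, and Q gave an adjusted p of 0.0266. The call in A549 was lost without siC replicate 1 or without any 1 siI1 library (adjusted p up to 0.0731). EIF5B and EIF1AD were called lower in MV3 only, at -0.22 and -0.30, and EIF1B was called in no line.

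**Figure D4:**
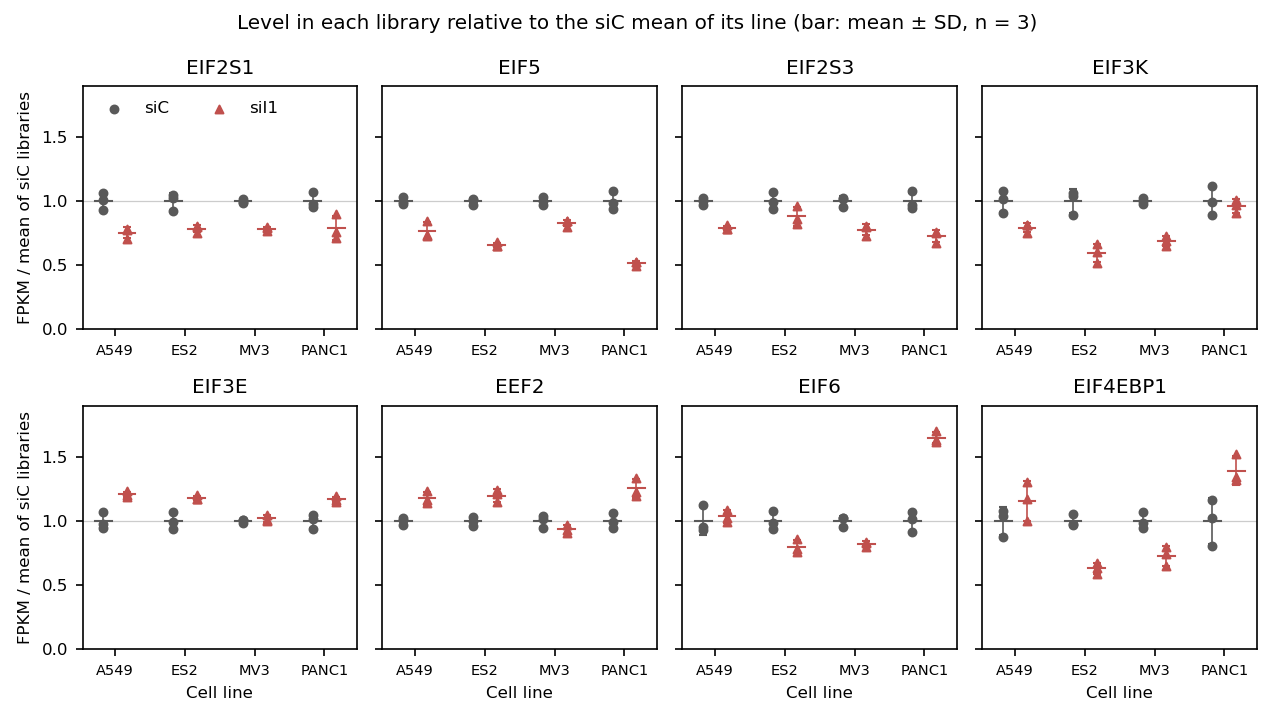
Points give the FPKM of each library divided by the mean of the siC libraries of its line, for 8 genes in 4 cell lines (grey circles siC, red triangles siI1), with bars for mean ± SD of 3 libraries. EIF2S1 and EIF5 sit below the siC points in all 4 lines, EIF3E and EEF2 above them in A549, ES2 and PANC1, and EIF6 and EIF4EBP1 below them in ES2 and MV3 but above them in PANC1.

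eIF3 is the largest initiation factor and holds the small subunit open for mRNA. The calls among its 14 genes are given by line. In MV3, 8 were called lower and 0 higher by limma (0 higher at an unadjusted p under 0.05, 1 by voom). Among the lower ones were EIF3A (-0.29), EIF3B (-0.29) and EIF3D (-0.26). In PANC1, 1 was lower (EIF3A, -0.28) and 3 higher (EIF3E, EIF3H and EIF3L). In ES2, 1 was lower and 2 higher, and in A549, 2 lower and 1 higher. Of protein-coding genes, 11.4%, 17.9%, 26.8% and 17.3% were called lower in A549, ES2, MV3 and PANC1. The shares called higher were 7.94%, 13.4%, 19.6% and 13.6%. In A549, ES2 and PANC1 the subunits of 1 complex were thus called in both directions. In A549 they ranged from -0.42 (EIF3CL, whose reads are not surely separable from those of EIF3C) to 0.29. The range was -0.74 to 0.27 in ES2 and -0.28 to 0.40 in PANC1. In MV3, where the calls were all lower, it was -0.53 to 0.13, with a median of -0.18.

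EIF3K (ENSG00000178982; hg38 chromosome 19, 38619082 to 38636955), a small subunit, had the largest fall of any member in ES2. Its level there was 52.5, 53.7 and 45.1 FPKM in siC and 33.5, 26.2 and 30.3 FPKM in siI1. In MV3 it was 55, 56.3 and 53.8 FPKM in siC and 35.7, 40.2 and 38 FPKM in siI1. For A549 the values were 75.3, 67.5 and 79.98 FPKM in siC and 56, 60.5 and 60.3 FPKM in siI1. The groups were apart in these 3 lines, with log2 fold changes of -0.74 ± 0.11, -0.53 ± 0.05 and -0.33 ± 0.07 (SE) and limma adjusted p of 0.00491, 0.000542 and 0.0339. Levels in PANC1 were 232, 260.4 and 208 FPKM in siC and 226, 211 and 237 FPKM in siI1, with overlapping groups and a change of -0.05 (95% interval -0.28 to 0.18). The changes differed between lines (Q, adjusted p 0.0367). The calls in ES2 and MV3 held without any 1 library, and that in A549 was kept only without siC replicate 2 (adjusted p up to 0.118 without any other).

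EIF3L, the partner of EIF3K in the complex, went the other way. It stood in ES2 at 34.5, 35.6 and 35.3 FPKM in siC and 44.1, 40.8 and 42.5 FPKM in siI1. In PANC1 it was 21.5, 20.2 and 17.2 FPKM in siC and 25.8, 23.8 and 24.5 FPKM in siI1. A549 had 19.5, 22.2 and 22.4 FPKM in siC and 25.1, 26.9 and 24.9 FPKM in siI1. The groups did not overlap in these lines, and the log2 fold change was 0.27 ± 0.04 (SE, adjusted p 0.00737 by limma) in ES2, 0.33 ± 0.09 (0.0415) in PANC1 and 0.26 ± 0.07 (0.0659, not called) in A549. The call in ES2 held without any 1 library and that in PANC1 was kept only without siC replicate 1 (adjusted p up to 0.125). In GENCODE, 41.1% of the exon bases of EIF3L (hg38 chromosome 22, 37848868 to 37889407) are shared on the same strand with a further listed gene, so that its level is uncertain.

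EIF3E, the subunit also known as INT6, was called higher in 3 lines. Levels in A549 were 53.6, 58.9 and 52 FPKM in siC and 65.3, 67.6 and 66.2 FPKM in siI1. Levels in ES2 were 105, 91.8 and 96.8 FPKM in siC and 117, 115 and 114 FPKM in siI1. The PANC1 libraries stood at 41, 42.3 and 37.8 FPKM in siC and 48.2, 47 and 46.5 FPKM in siI1. All siI1 values lay above all siC values in these lines, with log2 fold changes of 0.27 ± 0.06, 0.24 ± 0.05 and 0.23 ± 0.06 (SE; limma adjusted p 0.0282, 0.0241 and 0.0331). In MV3 the groups overlapped and the change was 0.03 (95% interval -0.04 to 0.10), and Q gave an adjusted p of 0.0485. With 1 library left out the call was lost in 5 of 6 cases in each line, kept only without siC replicate 2 in A549 and PANC1 and without siC replicate 1 in ES2, with adjusted p up to 0.0978, 0.105 and 0.0761. EIF3H, a further subunit, was called higher in PANC1 (0.39) and had positive changes in the other lines, and with the same sum over protein-coding genes EIF3E and EIF3H were called higher in all 4 lines. EIF3C and EIF3CL are near-identical copies whose reads cannot be told apart with certainty. EIF3CL was called lower in A549 (-0.42, limma adjusted p 0.00697) and EIF3C in MV3 (-0.18).

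In the eIF4F group, 1, 3, 5 and 1 genes were called lower in A549, ES2, MV3 and PANC1, of 11 tested in A549 and 10 in each other line. Of protein-coding genes, 11.4%, 17.9%, 26.8% and 17.3% were called lower in that order. In the same group 1 was called higher, EIF4G3 in MV3, where 19.6% of protein-coding genes were. EIF4G2 (hg38 chromosome 11, 10797050 to 10808940), the eIF4G relative that lacks the part binding eIF4E and is also called DAP5, was called lower in 3 lines. In ES2 it was 138, 139.6 and 139 FPKM in siC and 119.8, 117 and 121 FPKM in siI1. The MV3 libraries stood at 241, 242 and 236 FPKM in siC and 214, 211 and 214 FPKM in siI1. For PANC1 the values were 443, 437 and 441 FPKM in siC and 390.4, 371 and 374 FPKM in siI1. The groups were narrow and apart, and the falls were small: -0.22 ± 0.03, -0.17 ± 0.03 and -0.22 ± 0.06 (SE), with adjusted p of 0.00683, 0.00498 and 0.0365 by limma. In A549 its change was 0.04. With the same sum over protein-coding genes the values were -0.07 in ES2 and -0.03 in MV3, no longer called. The call in PANC1 was kept only without siC replicate 2 or 3 (adjusted p up to 0.126), and those in ES2 and MV3 held without any 1 library.

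EIF4G1 (hg38 chromosome 3, 184314495 to 184335358), the main scaffold, stood in MV3 at 123, 123 and 113 FPKM in siC and 96.5, 104 and 102 FPKM in siI1, and was called lower there (-0.24 ± 0.05, SE; limma adjusted p 0.0104), also without any 1 library. In A549 and ES2 its changes of -0.25 and -0.22 came close to the threshold without overlap (adjusted p 0.0543 and 0.0544 by limma), and in PANC1 it was 0.01 with overlapping groups. EIF4G3 (hg38 chromosome 1, 20806292 to 21177285), the third scaffold, was called higher in MV3 (0.21, limma adjusted p 0.0154), from 13.4, 13.9 and 14.3 FPKM in siC to 15.8, 15.6 and 17.1 FPKM in siI1, and not without siC replicate 1 (adjusted p 0.0507). MV3 thus had a lower EIF4G1 and EIF4G2 and a higher EIF4G3.

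EIF4E (hg38 chromosome 4, 98879276 to 98929133), which binds the cap, was called only in MV3, from 5.68, 5.59 and 5.93 FPKM to 5.05, 4.83 and 4.78 FPKM, a log2 fold change of -0.21 ± 0.05 (SE, limma adjusted p 0.0155) that was lost without siI1 replicate 2 or 3 (adjusted p up to 0.0562) and was -0.09 with the same sum over protein-coding genes. In A549 it was 4.08, 4.72 and 3.66 FPKM in siC and 4.97, 5.67 and 5.14 FPKM in siI1, apart but with a change of 0.31 (95% interval 0.02 to 0.60) that was not called. EIF4E2 (hg38 chromosome 2, 232550659 to 232583644), a cap-binding relative that can repress translation, was called lower in A549 alone, from 7, 6.44 and 6.77 FPKM to 3.68, 4.38 and 5.31 FPKM (-0.56 ± 0.14, SE; limma adjusted p 0.0441), a call kept only without siI1 replicate 3 (adjusted p up to 0.145). EIF4A1 (hg38 chromosome 17, 7572824 to 7579006), the helicase, was called lower in ES2 (-0.38, limma adjusted p 0.0113), from 4.39, 4.44 and 4.43 FPKM to 3.17, 3.37 and 3.34 FPKM. The call was lost with the same sum over protein-coding genes (-0.25, limma adjusted p 0.0558) and over all genes (-0.31, 0.0573). Levels of EIF4A1 are uncertain, since 47.4% of its exon bases are shared on the same strand with another listed gene. EIF4H, a helper of eIF4A, was called lower in ES2 (-0.23) and MV3 (-0.33), and EIF4A3, the helicase of the exon junction complex, in MV3 (-0.16). EIF4B and EIF4A2 were called in no line.

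The 4E-binding proteins hold eIF4E away from eIF4G until they are phosphorylated. EIF4EBP1 changed in opposite directions between lines. The ES2 libraries stood at 138, 150.1 and 139 FPKM in siC and 90.1, 83.5 and 95.5 FPKM in siI1. For MV3 the values were 69.4, 64 and 61.3 FPKM in siC and 42, 51.8 and 48.2 FPKM in siI1. PANC1 had 17.6, 20.04 and 13.9 FPKM in siC and 23, 22.6 and 26.1 FPKM in siI1. The groups did not overlap in any of them, siI1 being below siC in ES2 and MV3 and above it in PANC1, with log2 fold changes of -0.67 ± 0.06, -0.46 ± 0.08 and 0.48 ± 0.14 (SE) and adjusted p of 0.00113, 0.00784 and 0.0471 by limma. In A549 it was 0.21 with overlapping groups. The difference between lines was past the threshold (Q, adjusted p 0.011). The falls in ES2 and MV3 held without any 1 library. The call in PANC1 was kept only without siC replicate 2 (adjusted p up to 0.136), and with the same sum over all genes its value there was -0.26.

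EIF4EBP2 (hg38 chromosome 10, 70404145 to 70428618), the second of these proteins, was called higher in MV3 and PANC1. MV3 had 25.2, 26.5 and 24.4 FPKM in siC and 31.1, 32.1 and 31.9 FPKM in siI1. Levels in PANC1 were 15.4, 18.6 and 17 FPKM in siC and 20.9, 24.8 and 23.2 FPKM in siI1. Both sets were apart, with 0.32 ± 0.04 and 0.42 ± 0.09 (SE; limma adjusted p 0.00139 and 0.0209), and A549 and ES2 gave 0.05 and -0.11, with a difference between lines (Q, adjusted p 0.0234). In MV3, EIF4EBP1 and EIF4EBP2 thus moved in opposite directions. The call in PANC1 was kept only without siC replicate 2 or siI1 replicate 1 (adjusted p up to 0.069), and its value there was -0.31 with the same sum over all genes. EIF4EBP3 had at most 8 reads in a library and shares 73.2% of its exon bases with a readthrough gene, and EIF4ENIF1, the transporter of eIF4E, had values from -0.10 to -0.03.

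eIF5A, which carries the modified amino acid hypusine, helps the ribosome past stretches that stall it. EIF5A (hg38 chromosome 17, 7306999 to 7312463) was called higher in A549 and lower in ES2. The A549 libraries stood at 252, 226 and 231 FPKM in siC and 279, 288 and 293 FPKM in siI1. For ES2 the values were 441, 506 and 359 FPKM in siC and 295, 279 and 317 FPKM in siI1, the siC values spreading more widely than the siI1 values. The groups were apart in both, with 0.28 ± 0.06 and -0.54 ± 0.13 (SE; limma adjusted p 0.023 and 0.0277), and the change differed between lines (Q, adjusted p 0.018). In MV3 it was -0.13 and in PANC1 0.30, not called. Each of the 2 calls was lost in 5 of 6 cases, kept only without siC replicate 1 in A549 and siC replicate 3 in ES2 (adjusted p up to 0.0841 and 0.0925). EIF5AL1 (hg38 chromosome 10, 79512533 to 79516440), a copy of EIF5A whose reads are not surely separable from it, was called lower in ES2 (-0.47) and higher in PANC1 (0.46); the first call was lost without siC replicate 1 or siI1 replicate 2 or 3, and the second was kept only without siC replicate 2 (adjusted p up to 0.0603 and 0.133).

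EIF5A2 (ENSG00000163577; hg38 chromosome 3, 170888418 to 170908644), the second isoform gene, had the largest rise of any called member in A549. Its level there was 3.42, 4.31 and 3.47 FPKM in siC and 7.95, 6.84 and 7.32 FPKM in siI1. ES2 had 3.31, 2.53 and 2.95 FPKM in siC and 2.89, 3.4 and 3.03 FPKM in siI1. Levels in MV3 were 5.82, 6.28 and 6.07 FPKM in siC and 5.89, 5.76 and 6.25 FPKM in siI1. The A549 groups were far apart, while those of ES2 and MV3 overlapped. The log2 fold change in A549 was 0.90 ± 0.12 (SE, limma adjusted p 0.00633) and held without any 1 library. It was 0.07 in ES2 and -0.02 in MV3, and in PANC1, with 15.5, 14.1 and 14.3 FPKM in siC and 13.3, 11.2 and 12.9 FPKM in siI1, it was -0.23 and not called. Q gave an adjusted p of 0.0144.

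EIF6 (ENSG00000242372; hg38 chromosome 20, 35278907 to 35284985) keeps the large ribosomal subunit from joining too early and takes part in its assembly. It showed the smallest adjusted p of any member for a difference between lines (Q, 0.0052). In PANC1 it was 95.1, 100.5 and 85.3 FPKM in siC and 159, 152 and 153 FPKM in siI1. Levels in ES2 were 186, 213 and 196 FPKM in siC and 155, 151 and 170.5 FPKM in siI1. In MV3 it was 151, 151 and 140.4 FPKM in siC and 117, 123 and 123 FPKM in siI1. The groups were apart in all 3, with siI1 above siC in PANC1 and below it in ES2 and MV3. The log2 fold change was 0.72 ± 0.07 (SE, adjusted p 0.00189 by limma) in PANC1, -0.32 ± 0.07 (0.0217) in ES2 and -0.28 ± 0.04 (0.00287) in MV3, and 0.05 in A549 with overlapping groups. The calls in PANC1 and MV3 held without any 1 library, and that in ES2 was kept only without siC replicate 1 or siI1 replicate 3 (adjusted p up to 0.0739). The call in ES2 was also lost with the same sum over protein-coding genes (-0.18, limma adjusted p 0.071). The value in PANC1 was 0.68 with the same sum over protein-coding genes and 0.76 by median of ratios, and -0.03 with the same sum over all genes, where the protein-coding median was -0.71.

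Among the elongation factors, EEF1A1 (hg38 chromosome 6, 73489308 to 73525587), which delivers aminoacyl-tRNA, had the highest level of all members in every line and was called in none. For A549 the values were 912, 908 and 865 FPKM in siC and 984, 1059 and 1034 FPKM in siI1. In ES2 it was 2198, 2291 and 2253 FPKM in siC and 2336, 2379 and 2502 FPKM in siI1. The PANC1 libraries stood at 1471, 1508 and 1304 FPKM in siC and 1706, 1596 and 1636 FPKM in siI1. The siI1 libraries lay above the siC libraries in these 3 lines and overlapped with them in MV3, and the log2 fold changes were 0.20, 0.10, -0.06 and 0.21 in A549, ES2, MV3 and PANC1 (limma adjusted p from 0.0714 to 0.446). Voom on the recovered reads called it higher in A549, ES2 and PANC1 (adjusted p 2.3e-10, 0.014 and 0.0056). With the same sum over all genes its value in PANC1 was -0.55.

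EEF1A2 (hg38 chromosome 20, 63488013 to 63499239), the isoform gene of muscle and nerve, differed widely in level between lines. It stood in MV3 at 9.77, 8.08 and 8.46 FPKM in siC and 12.2, 14.3 and 13.5 FPKM in siI1. A549 had 73.2, 62.8 and 80.3 FPKM in siC and 87.1, 91.2 and 96.2 FPKM in siI1. The ES2 libraries stood at 0.466, 0.228 and 0.207 FPKM in siC and 0.656, 0.277 and 0.236 FPKM in siI1, under the level needed for a test. The MV3 groups were apart, and the rise of 0.58 ± 0.09 (SE, limma adjusted p 0.00312) was the largest called change of a member in that line and held without any 1 library. In A549 the change was 0.35, without overlap but not called, and in PANC1 0.34, with overlap.

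EEF1B2 (ENSG00000114942; hg38 chromosome 2, 206159585 to 206162928), a subunit of the exchange factor that recharges eEF1A, was called lower in 3 lines. For ES2 the values were 236, 234 and 243 FPKM in siC and 168, 172 and 182 FPKM in siI1. The MV3 libraries stood at 155, 144 and 135 FPKM in siC and 116, 113 and 113 FPKM in siI1. For PANC1 the values were 182, 186 and 159 FPKM in siC and 149, 148 and 143 FPKM in siI1. The groups were apart in each, with log2 fold changes of -0.45 ± 0.04, -0.34 ± 0.05 and -0.26 ± 0.07 (SE; limma adjusted p 0.00129, 0.00337 and 0.0467). In A549 it was 0.08 with overlap, and the lines differed (Q, adjusted p 0.0156). The call in PANC1 was kept only without siC replicate 3 (adjusted p up to 0.147) and the other 2 held without any 1 library. EEF1D, another subunit of the same exchange factor, was called higher in A549 (0.27) and PANC1 (0.44), so that in PANC1 the 2 subunits were called in opposite directions. EEF1E1, a scaffold protein named after this complex, was called lower in MV3 (-0.42).

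EEF2 (ENSG00000167658; hg38 chromosome 19, 3976056 to 3985463), the translocase, was called higher in A549, ES2 and PANC1. Levels in A549 were 359.7, 345 and 366 FPKM in siC and 406, 440.4 and 415 FPKM in siI1. ES2 had 1099, 1179.7 and 1145 FPKM in siC and 1379, 1308 and 1417 FPKM in siI1. PANC1 had 283, 301 and 268 FPKM in siC and 349, 379.7 and 341 FPKM in siI1. All siI1 values lay above all siC values in these lines, with log2 fold changes of 0.24 ± 0.05, 0.26 ± 0.06 and 0.33 ± 0.07 (SE; limma adjusted p 0.0323, 0.0215 and 0.0225). In MV3 the groups overlapped at -0.10 (95% interval -0.22 to 0.03), and the lines differed (Q, adjusted p 0.0309). With 1 library left out the call was lost in 6 of 6 cases in A549 (adjusted p up to 0.109), in 4 of 6 in ES2, kept only without siC replicate 2 or siI1 replicate 2 (up to 0.0864), and in 3 of 6 in PANC1, those without siC replicate 1 or siI1 replicate 1 or 2 (up to 0.0844). In PANC1 the value was -0.43 with the same sum over all genes.

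The enzymes that modify these factors were expressed at a few FPKM. EEF1AKMT2 (hg38 chromosome 10, 124748149 to 124791887), a lysine methyltransferase of eEF1A, stood in PANC1 at 6.51, 6.53 and 7.41 FPKM in siC and 3.15, 3.38 and 4.1 FPKM in siI1. For MV3 the values were 4.17, 3.65 and 3.85 FPKM in siC and 2.97, 2.67 and 2.81 FPKM in siI1. Both were called lower without overlap, at -0.86 ± 0.11 and -0.40 ± 0.07 (SE; limma adjusted p 0.00353 and 0.00584), also without any 1 library, and the lines differed (Q, adjusted p 0.0353). EEF1AKMT3, another such enzyme, was called higher in ES2 (0.53, limma adjusted p 0.0195), a call kept only without siC replicate 3 or siI1 replicate 2 (up to 0.0621). EEF2KMT, which methylates eEF2, was called lower in MV3 (-0.47, limma adjusted p 0.024), not without siI1 replicate 1 or 3 (up to 0.0668), and shares 31.4% of its exon bases with a gene on the opposite strand. EEF1AKMT1 rose in A549 from 0.916, 1.5 and 0.852 FPKM to 2.32, 2.13 and 2.53 FPKM (0.85, limma adjusted p 0.0486), which rests on 5 to 13 reads a library, was lost in 5 of 6 cases and was not called by voom (adjusted p 0.091). EEF2K, the kinase that switches eEF2 off, was called in no line.

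All members together took 1.78% to 1.81% of the protein-coding reads in siC libraries of A549 and 1.93% to 1.98% in siI1, 3.32% to 3.40% and 3.47% to 3.59% in ES2, and 2.64% to 2.79% and 2.86% to 2.99% in PANC1. In MV3 they took 2.37% to 2.45% in siC and 2.35% to 2.37% in siI1. The siI1 share lay above the siC share in A549, ES2 and PANC1 and below it in MV3. The share is one of reads, in which a long or abundant mRNA counts for more.

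A list of 42 other genes of translation was set beside these: kinases and phosphatases of eIF2, partners of the cap and of the poly(A) tail, mimics of eIF5, factors of re-initiation, termination, hypusine synthesis and selenocysteine elongation, S6 kinases, and mitochondrial factors. This list, too, was chosen with earlier results of these data known. Of 41 tested in A549, 9 were lower and 7 higher (protein-coding genes 11.4% and 7.94%), of 42 in ES2 10 and 3 (17.9% and 13.4%), of 41 in MV3 16 and 5 (26.8% and 19.6%), and of 41 in PANC1 11 and 3 (17.3% and 13.6%). Their median was -0.04, -0.15, -0.14 and -0.11 in that order. Both eIF5 mimics, which compete with eIF5 for eIF2, were called lower in every line, BZW2 from -1.90 to -1.19 and BZW1 from -0.75 to -0.45.

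BZW1 stood in A549 at 39.2, 40.4 and 33.6 FPKM in siC and 23.9, 24.2 and 23.2 FPKM in siI1. MV3 had 69.5, 67.7 and 69.2 FPKM in siC and 51.2, 49.7 and 50.1 FPKM in siI1. The groups were apart in all 4 lines, with log2 fold changes of -0.65 ± 0.08, -0.52, -0.45 and -0.75 (limma adjusted p from 0.00018 to 0.00462). GSPT1, the termination factor eRF3a, was also called lower in all 4 lines, at -0.26, -0.21, -0.32 and -0.45, with adjusted p from 0.00137 to 0.0442 by limma. The highest was that in ES2, where the same sum over protein-coding genes shifts the factor applied to the libraries by 0.14. Genes of this list were not followed singly under other scalings or with libraries left out. MKNK2, the kinase that phosphorylates eIF4E, was called higher in all 4. Its level in PANC1 was 18.6, 18.4 and 19.3 FPKM in siC and 41.1, 42.3 and 37.1 FPKM in siI1. Levels in MV3 were 24.7, 24.2 and 21.2 FPKM in siC and 40.7, 43.5 and 43.8 FPKM in siI1. Its log2 fold changes were 0.50, 0.36, 0.86 and 1.07 in A549, ES2, MV3 and PANC1, without overlap in any line. PDCD4, an inhibitor of eIF4A, rose in A549 (0.66), ES2 (0.68) and MV3 (0.78), and in PANC1 its groups overlapped at -0.01. Of the eIF2 kinases, EIF2AK1 was called lower in A549, MV3 and PANC1, from -0.53 to -0.38, EIF2AK2 in A549 (-0.48), EIF2AK4 in PANC1 (-0.39) and EIF2AK3 in no line. The selenocysteine elongation factor EEFSEC (0.49) and the S6 kinase RPS6KB2 (0.31) were called higher in PANC1. Of the 10 mitochondrial factors, 1, 3, 5 and 4 were called lower in A549, ES2, MV3 and PANC1, against 11.4%, 17.9%, 26.8% and 17.3% of protein-coding genes, and 1 was called higher, TSFM in A549 (0.35).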

How the data were processed

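Total RNA, depleted of ribosomal RNA, was sequenced from 24 libraries in 8 groups of 3. Per the labels and methods, the authors clipped reads with Cutadapt 1.14, aligned them to hg38 with HISAT2 2.1.0, counted them per gene with featureCounts 1.5.3 and used edgeR 3.30.3 with TMM scaling. The FPKM values the authors deposited stand in a table for each line, scaled on its own, so levels were not tested between lines. The deposited columns do not name this unit: it was worked out from the listed gene lengths and the steps of the values. The kit marks strand, but whether counting used it is not given in the sources used here, so genes that overlap on either strand are uncertain. The tables also hold the authors' log2 fold changes and p-values, which were not used. Whole reads were recovered from 100% of values (tolerance 0.01), and scaling factors lay between 0.905 and 1.10. Replicate pairs differed beyond sampling noise (chi-square per gene 1.54 to 15.1 over 24 pairs), so none were merged.

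Values were tested as log2(FPKM + 0.5) with limma 3.58.1 (R 4.3.3; intensity trend) per line over 6 libraries, with Benjamini-Hochberg adjustment over all genes averaging 0.5 FPKM or more. This scale understates the change of low genes. Cochran's Q used an F distribution, with adjustment over all genes tested in 4 lines. The fits were tested on simulated data. The genes described singly are the 3 lowest and 3 highest calls per line at a mean of at least 1 FPKM, those called in the same direction in at least 3 lines, and EIF4E, EIF4G1, EIF4A1, EIF4EBP1, EIF4EBP2, EIF5A, EIF5A2, EEF1A1, EEF1A2 and EEF2; further members and genes of the list were named after their values were seen. Alternatives were pseudocounts of 0.1 and 1, no filter, a filter of 1 FPKM, 3 other scalings, voom on recovered reads, a replicate block, a fold minimum and leaving out each library. The members and lists were chosen with earlier results of these data known. Exon sharing and coordinates came from GENCODE release 44 (hg38), and start windows from RefSeq. Python 3.11.15 with pandas 2.3.3 was also used. Other cell lines of the study were not analysed here.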

Additional observations from a re-analysis of the deposited data

Results flagged for a closer look

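For 15 of the genes described singly the log2 fold changes differed between the 4 lines by Cochran's Q, adjusted over all genes tested in 4 lines. Many of these genes were picked for a large call in some line, which favours such a difference, so their count is a list and no result. Of all members tested in 4 lines, 24 of 57 were past the threshold, against 34.4% of protein-coding genes. The adjusted p was 0.0052 for EIF6, 0.011 for EIF5, 0.011 for EIF4EBP1, 0.0144 for EIF5A2, 0.0156 for EEF1B2, 0.018 for EIF5A, 0.0234 for EIF4EBP2 and 0.0241 for EIF5AL1. It was 0.0266 for EIF1AX, 0.0309 for EEF2, 0.0353 for EEF1AKMT2, 0.0367 for EIF3K, 0.0468 for EIF3CL, 0.0474 for EEF2KMT and 0.0485 for EIF3E. EIF5 was called lower in each line and differed in size, while EIF4EBP1, EIF5A, EIF5AL1 and EIF6 were called in both directions. PANC1, which stands apart in several of these, was harvested at 96 h against 72 h for the others, and line and harvest time cannot be told apart.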

How the results depend on the processing

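Pseudocounts of 0.1 and 1, a filter of 1 FPKM and a fold minimum of 0.25 (log2) left each count of members and of list genes called per line or in all 4 lines within 1.5 times, and IGF2BP1 kept its call in each line under every alternative. Under the fold minimum, members higher in at least 3 lines went from 2 to 0, 4 of the 8 eIF3 genes lower in MV3 stayed called, and 1 of 5 eIF4F genes did in MV3 and 1 of 3 in ES2. Other settings moved counts, and the cause was not tested unless the scaling itself shifts all genes. Without a filter, 5 members were higher in A549, 5 lower and 5 higher in PANC1, 1 lower in 4 lines and 15 differed between lines. The same sum over protein-coding genes shifted the mean log2 factor applied to the libraries, siI1 minus siC, by 0.14 in ES2 and 0.13 in MV3. This scaling gave 6 members lower and 8 higher in ES2, 18 lower and 12 higher in MV3, and 0 lower and 2 higher in all 4 lines, with 5 genes of the list of other translation genes lower in ES2 and 9 higher in MV3. The same sum over all genes shifted PANC1 by -0.76 and gave 44 members lower and 0 higher there, 9 lower in ES2 and 5 higher in A549, and for the list 33 lower and 0 higher in PANC1, 5 lower in ES2 and 4 higher in A549. Rises well below that shift turn negative under it, and so 14 genes described singly changed sign in PANC1. With the same sum over protein-coding genes, which shifts PANC1 by -0.04, no called value changed sign there. Of the 14, these 12 were called in PANC1 at the deposited scaling or under the same sum over all genes: EEF1A1 -0.55, EEF1A2 -0.40, EEF2 -0.43, EIF3E -0.52, EIF3L -0.41, EIF4E2 -0.69, EIF4EBP1 -0.26, EIF4EBP2 -0.31, EIF4G1 -0.74, EIF5A -0.45, EIF5AL1 -0.21 and EIF6 -0.029. Median of ratios gave 5 members lower in PANC1 and 1 lower in 4 lines. Voom gave 14 members higher in A549, 7 in ES2 and 15 in PANC1, 38 that differed between lines, and 5 genes of the list higher in ES2 and 5 in PANC1. Same-numbered libraries did not deviate together (correlations from -0.056 to 0.071, none over 0.1), so the numbers do not pair them. With the replicate number as a block, members lower and higher were 1 and 1 in A549, 6 and 1 in ES2, 24 and 3 in MV3 and 3 and 6 in PANC1, 0 were lower in 4 lines and 0 differed between lines (limma at the adjusted threshold), and the list had 2 lower and 2 higher in A549 and 6 lower in ES2.

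With 1 library left out, members lower were 2 to 5 in A549, 7 to 11 in ES2, 26 to 31 in MV3 and 3 to 5 in PANC1, members higher 1 to 5, 1 to 3, 2 to 3 and 2 to 14, those lower in 4 lines 0 to 2, higher in 4 lines 0 to 0, and those that differed between lines 5 to 17. For the list, lower were 2 to 5, 6 to 10, 14 to 16 and 8 to 12, and higher 1 to 4, 3 to 3, 5 to 6 and 2 to 4, in the same order of lines. IGF2BP1 ranged from -1.35 to -1.30 in A549, -1.60 to -1.50 in ES2, -1.54 to -1.49 in MV3 and -1.85 to -1.82 in PANC1. Of 61 calls of genes described singly, 29 held without each of the 6 libraries. With all libraries, 31 of the 61 were lost with the replicate number as a block and 19 without a filter on low values. The same sum over protein-coding genes lost 12 and median-of-ratios scaling 4. With the same sum over all genes, 23 values were lost or reversed, some of them not called at the deposited scaling. Depth was least in A549, where genes of few FPKM rest on few reads.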

Other observations

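EIF3K, which did not pass the test in PANC1, also stood apart there in level: its mean in siC was 233 FPKM, against 50.4 FPKM in ES2, 55.0 FPKM in MV3 and 74.3 FPKM in A549. The tables were scaled separately, so this is a description and has no test. Many of its neighbours on chromosome 19 showed the same. Of 8866 protein-coding genes with at least 1 FPKM in siC of every line, 1.78% had a level in PANC1 at least 2 times that of the highest other line. Of the 22 other such genes within 1 Mb of EIF3K, 14 did, and the median ratio to the highest other line was 2.37 against 0.65 over all 8866. The highest ratios were those of PAF1, a transcription elongation factor (9.64), and TIMM50, a mitochondrial import subunit (7.97), followed by PLEKHG2 (7.73), RPS16, a ribosomal protein (6.39), and SUPT5H, another elongation factor (5.12). These genes were named after their values were seen, and whether the level in PANC1 bears on the absence of a call for EIF3K there was not tested.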
